A study of Rattus norvegicus with 6 samples.

Results

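The genes described here are 43 genes of DNA replication and nucleotide supply, taken by their symbols from a table of 21028 rat gene models. The series holds 6 libraries of poly(A) RNA, made from sciatic nerves of wild-type female rats whose nerve defect had been repaired with a conduit, and p-values measure the spread between these libraries. The 3 rats of the PLLARS_US group had a PLLARS conduit and ultrasound stimulation, and the 3 rats of the PCL group had a PCL conduit without ultrasound. Conduit and ultrasound changed together, so their parts cannot be told apart, and the labels give neither the time after surgery nor the ages. The study tested a biodegradable piezoelectric device, driven by ultrasound, for its effect on growing axons. Values are FPKM, fragments per kilobase of gene model scaled to the depth of the library, so levels of different genes can be set side by side. All 43 members were matched, each to 1 gene model, and all were above 0 in every library. The test took genes whose FPKM averaged 1 or more across libraries, which kept 40 members and left out Mcm10, Cdc6 and Cdc45.

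Before a cell can copy its genome, the origin recognition complex with Cdc6 and Cdt1 loads the ring of MCM2-7, the helicase, onto DNA in G1. Mcm10, Cdc45 and the GINS complex switch it on in S phase, primase and polymerase alpha start each strand, polymerases delta and epsilon extend it on the Pcna clamp that replication factor C loads, RPA covers the exposed single strand, and Fen1 and Lig1 join the lagging strand fragments. Ribonucleotide reductase, thymidylate synthase and thymidine kinase supply the deoxynucleotides. Many of these genes are switched on by E2F factors at the G1/S boundary, while genes of mitosis are switched on later through a CHR element and CCAAT boxes in their promoters. In an injured peripheral nerve, Schwann cells, fibroblasts, endothelial cells and macrophages all divide, so bulk RNA from the nerve sums them, and fewer dividing cells cannot be told apart from less RNA per dividing cell.

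Promoters are shown because the E2F letters, and the CHR letters together with CCAAT, are where replication and mitosis genes are known to part. Both lists are described further on. The windows ran from 250 bases before to 50 bases after the RefSeq gene start on the rat assembly GRCr8. Of the 43 members 36 had a window in that table, and Mcm4, Orc1, Orc4, Cdc6, Gins4, Rpa3 and Rrm2 had none. The E2F motif was searched on both strands as TTTCCCGC, TTTGGCGC, TTTGCCGC or TTTCGCGC, whose matches can overlap each other on opposite strands. It was found in 17 of the 36 windows (47.2%), in 1 of the 23 windows of mitosis genes (4.35%), in 3.92% of the 9857 windows of tested genes and in 2.25% of all 27457 windows. All 5 MCM2-7 genes with a window held at least 2 matches, and these are printed 5′ to 3′ with the matches in capitals.
Mcm2 (chr4:122918077-122918128, minus strand): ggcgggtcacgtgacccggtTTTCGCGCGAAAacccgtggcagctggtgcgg
Mcm3 (chr9:30733706-30733772, minus strand): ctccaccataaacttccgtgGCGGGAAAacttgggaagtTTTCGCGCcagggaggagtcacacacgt
Mcm5 (chr19:13488580-13488832, plus strand): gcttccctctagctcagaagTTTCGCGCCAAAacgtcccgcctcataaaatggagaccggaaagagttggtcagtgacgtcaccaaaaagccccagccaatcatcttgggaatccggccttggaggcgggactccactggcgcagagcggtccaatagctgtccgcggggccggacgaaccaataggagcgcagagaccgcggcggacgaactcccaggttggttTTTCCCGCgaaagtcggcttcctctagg
Mcm6 (chr13:42404460-42404511, minus strand): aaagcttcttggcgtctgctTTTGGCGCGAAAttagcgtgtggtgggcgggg
Mcm7 (chr12:22163203-22163428, minus strand): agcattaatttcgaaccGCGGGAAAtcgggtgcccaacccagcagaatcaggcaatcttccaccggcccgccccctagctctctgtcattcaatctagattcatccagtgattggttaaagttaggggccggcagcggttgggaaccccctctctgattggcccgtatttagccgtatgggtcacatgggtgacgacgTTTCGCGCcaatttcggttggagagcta
In Mcm2 and Mcm6 the capitals hold 2 matches on opposite strands that overlap, in Mcm3 and Mcm7 they hold 2 separate matches, and Mcm5 has an overlapping pair and a separate match. The match nearest the start site began 6 bases before it in Mcm3, 8 before it in Mcm5 and 10 before it in Mcm2. Pole2, the member with the lowest log2 difference below, held a single match that began at base 10 of the transcribed side.
Pole2 (chr6:93435315-93435382, minus strand): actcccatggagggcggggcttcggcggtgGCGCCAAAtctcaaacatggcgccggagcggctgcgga
The CHR motif, TTTGAA or TTCGAA on either strand, was found in 6 of the 36 windows of members (16.7%), in 16 of the 23 of mitosis genes (69.6%) and in 13.4% of those of tested genes. CCAAT, with or without CHR, was common in both lists. It was found in 21 windows of members (58.3%), in 18 of mitosis genes (78.3%) and in 37.4% of those of tested genes. A CHR motif together with CCAAT was found in 4 windows of members (11.1%), in 14 of mitosis genes (60.9%) and in 5.44% of those of tested genes. The capitals in the printed members mark E2F only. Of these members, Mcm7 was among the 4, with 1 CHR match and 3 of CCAAT in its window. Mcm2 and Pole2 held 2 CHR matches each and no CCAAT, and Mcm3, Mcm5 and Mcm6 held CCAAT and no CHR match. Cdk1, the kinase of mitotic entry, and Birc5, of the chromosomal passenger complex, are printed as mitosis genes, with the CHR and CCAAT matches in capitals.
Cdk1 (chr20:19265068-19265297, plus strand): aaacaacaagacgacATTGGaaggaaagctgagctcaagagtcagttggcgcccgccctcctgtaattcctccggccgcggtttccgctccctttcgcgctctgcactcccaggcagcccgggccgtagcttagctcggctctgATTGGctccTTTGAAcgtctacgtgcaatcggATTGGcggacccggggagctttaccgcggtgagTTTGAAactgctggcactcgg
Birc5 (chr10:103571918-103572158, plus strand): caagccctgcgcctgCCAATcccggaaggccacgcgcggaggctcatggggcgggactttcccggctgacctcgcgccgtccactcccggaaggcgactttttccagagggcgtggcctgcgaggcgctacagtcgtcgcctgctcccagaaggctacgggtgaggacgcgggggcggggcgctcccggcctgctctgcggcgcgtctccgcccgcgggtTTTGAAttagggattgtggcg
Cdk1 was also the mitosis gene with an E2F match, which stands in lower case in its window. A match is a description of these letters and not a bound site, and Tk1, Pcna, Pold2, Orc2 and Mcm10 held no E2F match as spelled here.

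**Figure D1:**
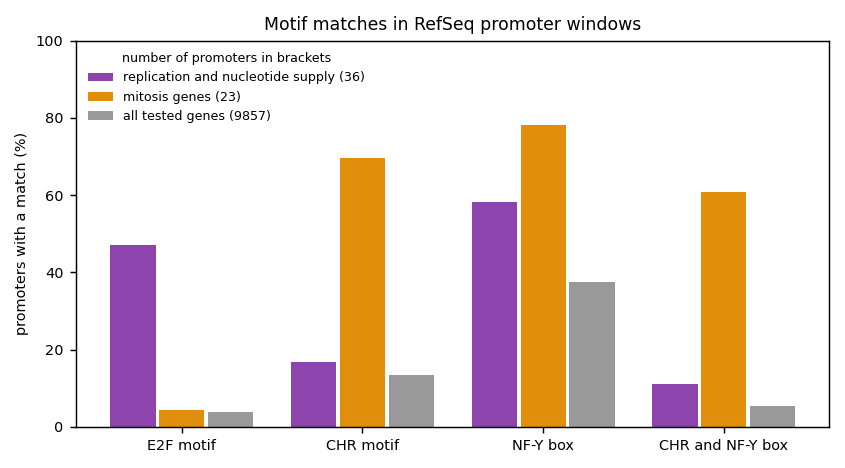
Share of RefSeq promoter windows (percent, vertical axis) that hold the E2F motif, the CHR motif, the CCAAT box bound by NF-Y, or both CHR and CCAAT, for the 36 members, the 23 mitosis genes and the 9857 tested genes with a window. The E2F motif stands out in the members (47.2%) and the pair of CHR and CCAAT in the mitosis genes (60.9%).

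The libraries held about 15320000 to 16680000 fragments, estimated from the steps between low values of short gene models, and listed 13146 to 13800 genes at an FPKM of at least 1. Of 13720 genes tested with limma, 0 had a Benjamini-Hochberg adjusted p under 0.05. At an unadjusted p under 0.05 there were 960 genes (7.00%), of which 273 were higher and 687 lower in the PLLARS_US group. No single gene is therefore called changed, and every unadjusted p below describes a gene that did not pass. Tissue makeup differed strongly between rats. The summed FPKM of 9 skeletal muscle genes, none of them at 0, ran from 21.8 to 14936 in the PLLARS_US libraries and from 114 to 9598 in the PCL libraries, and PLLARS_US replicate 1 and PCL replicate 3 held the most muscle RNA. Schwann cell markers were present throughout, with a summed FPKM of 1633 to 3613 in the PLLARS_US libraries and 1071 to 3302 in the PCL libraries. For none of the 8 cell type lists did the summed level separate the groups.

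Most replication genes had small estimated differences between the groups. The log2 difference of PLLARS_US minus PCL, on the log2(FPKM + 1) scale, had a median of -0.13 over the 40 tested members (quartiles -0.21 and -0.013), beside -0.042 over all tested genes. It was below 0 in 30 of the 40, where 57.0% of all tested genes were below 0, and within 0.25 of 0 in 31, where 63.7% of all tested genes were. Under median-ratio scaling of the libraries 23 of the 40 were below 0, beside 47.9% of all tested genes. An unadjusted limma p under 0.05 was reached by 2 members on the lower side, where the background was 5.01% of tested genes, and by 1 on the higher side, where it was 1.99%. These shares are near the background. The lower count was 0 without PLLARS_US replicate 3 or PCL replicate 1 and 1 without PLLARS_US replicate 1, and the higher count was 0 without any 1 of the PLLARS_US libraries or PCL replicate 3. The median was -0.055 without PLLARS_US replicate 1 and -0.056 without PCL replicate 1. The groups did not overlap in 4 tested members that were lower (background 10.0%) and 1 that was higher (background 4.33%). The 95% intervals of the differences lay within 1 of 0 on the log2(FPKM + 1) scale for 38 of the 40, a bound that allows a larger fold in FPKM for low genes.

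**Figure D2:**
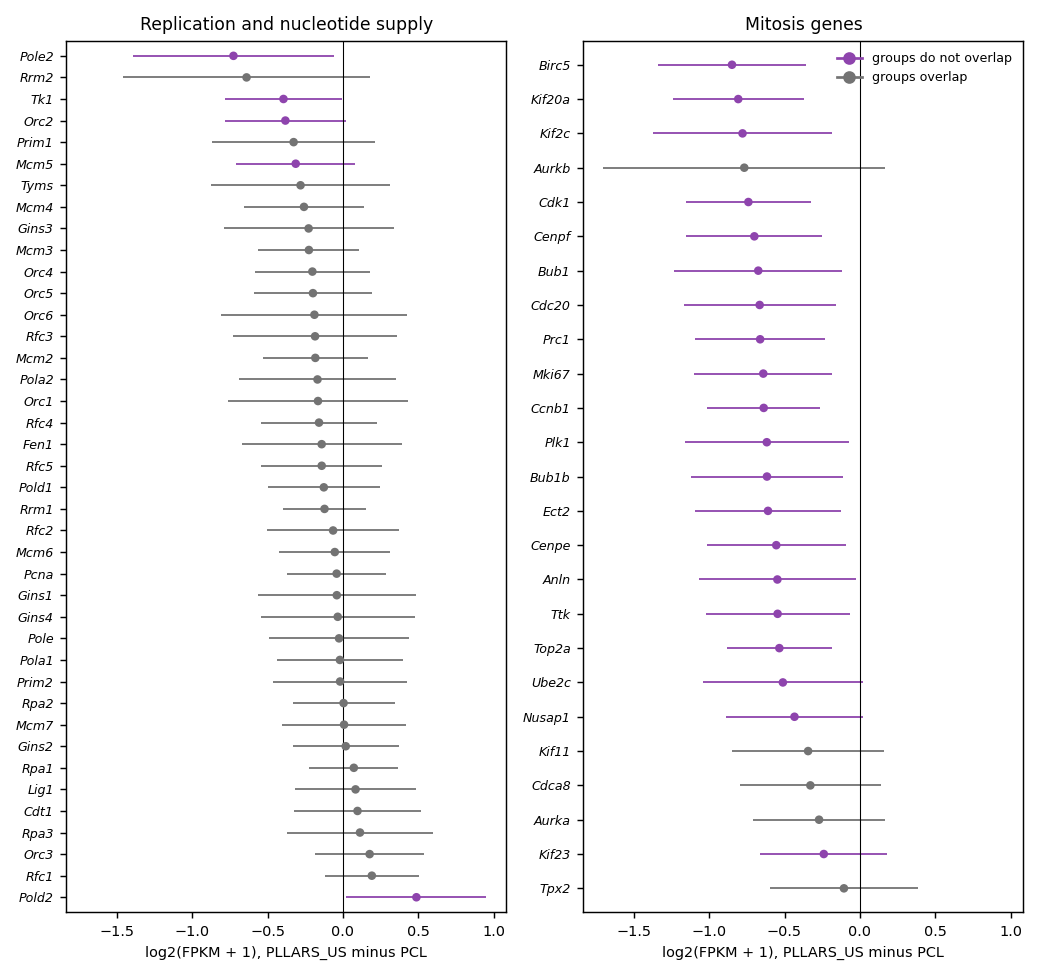
Differences in log2(FPKM + 1), PLLARS_US minus PCL (horizontal axis), with 95% limma intervals, for the 40 tested members and for 25 mitosis genes. Points are genes, purple where all PLLARS_US libraries lay on one side of all PCL libraries. The members gather near 0, with a median of -0.13, and the mitosis genes lie to the left, with a median of -0.62.

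The members spanned levels from Pcna, at a mean above 60 FPKM, to Cdc45, under 1. Over the 6 libraries 4 members averaged at least 16 FPKM, 15 lay between 8 and 16, 9 between 4 and 8, 12 between 1 and 4, and 3 under 1. Orc2 to Orc5, RPA and replication factor C averaged from 6.92 FPKM for Rfc5 to 20.1 FPKM for Rpa3, and Orc1, Cdc6, Cdc45 and Mcm10 from 0.63 FPKM for Cdc45 to 1.13 FPKM for Orc1. The lowest value of a member fell in PLLARS_US replicate 1 for 19 of the 43 members and in PLLARS_US replicate 3 for 8, and the highest fell in PCL replicate 1 for 16. The mean of log2(FPKM + 1) over all 43 was 2.66, 2.81 and 2.76 in PLLARS_US replicates 1 to 3 and 2.93, 2.84 and 2.83 in PCL replicates 1 to 3. By this log mean the groups lay apart by a narrow margin, but they overlapped in the summed FPKM of the 43 genes, which was 339.6, 371 and 361 in the PLLARS_US libraries and 404, 375 and 370.5 in the PCL libraries. PLLARS_US replicate 1, the lowest, was also the library richest in muscle RNA. PCL replicate 3, the second richest, was the lowest PCL library by both measures, by a narrow margin. Without those 2 libraries 25 of the 40 tested members were lower and the median was -0.061, and the part of muscle RNA in these differences was not tested further.

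**Figure D3:**
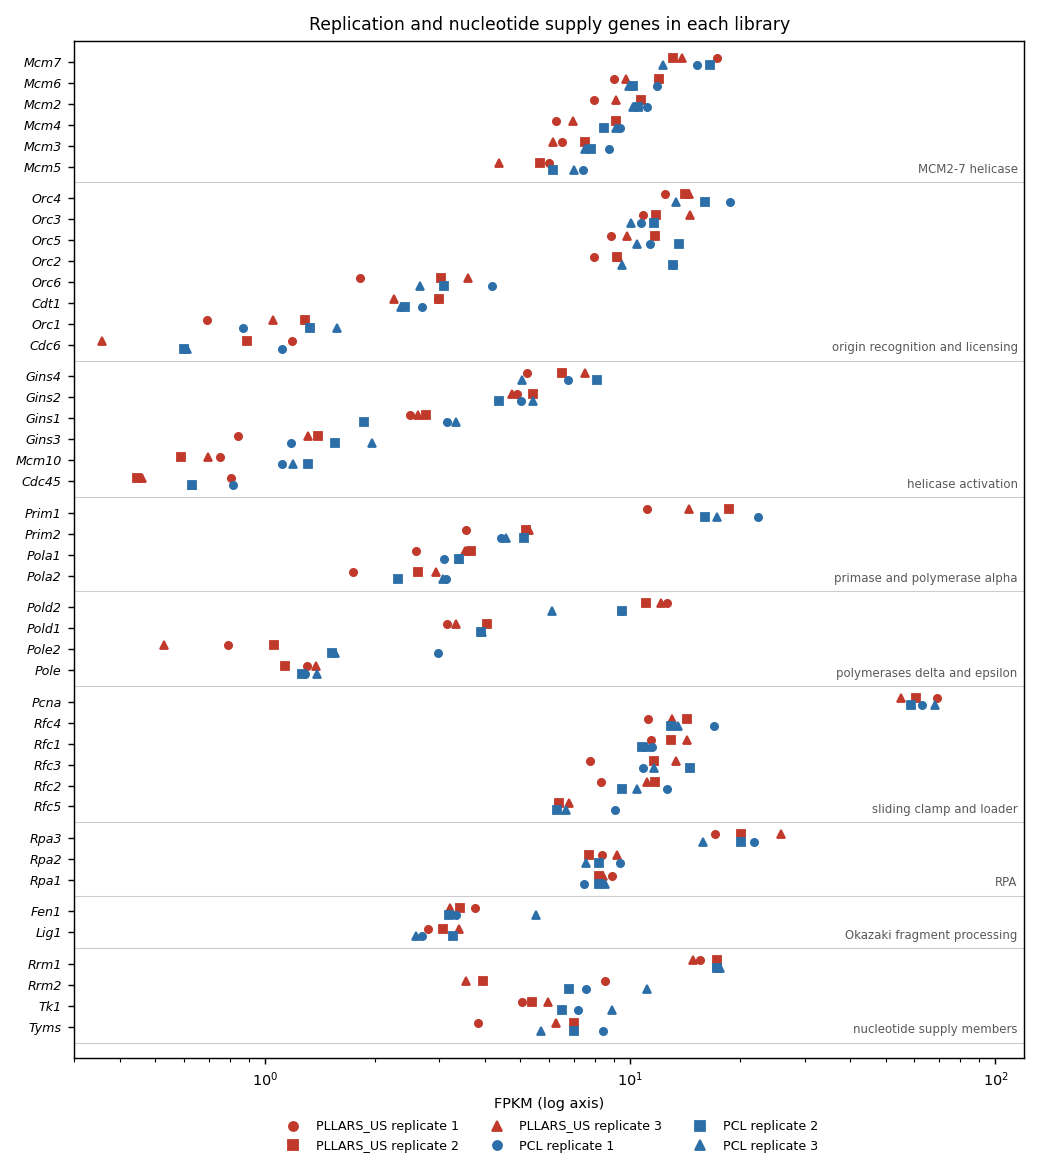
FPKM of each of the 43 members in each of the 6 libraries (horizontal log axis), grouped by role and ordered by mean level within a role. Red marks are PLLARS_US libraries, blue marks PCL libraries and the shape gives the replicate. The red and blue marks interleave for most genes, and lie apart for Pole2, Tk1, Orc2, Mcm5, Mcm10 and Pold2.

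The 6 genes of the MCM2-7 ring, whose proteins form 1 complex with a single copy of each, differed in RNA level, with the highest 1.76 to 3.17 times the lowest within a library. Their log2 differences ran from -0.31 to 0.0073, with 5 of 6 below 0 and none at an unadjusted p under 0.05. Mcm5 had 5.99, 5.65 and 4.37 FPKM in the PLLARS_US libraries and 7.41, 6.12 and 6.99 FPKM in the PCL libraries. All 3 PLLARS_US values of Mcm5 lay below all 3 PCL values, a log2 difference of -0.31 (SE 0.16, limma p 0.0998, adjusted p 0.807). Mcm4 had 6.24, 9.13 and 6.95 FPKM in the PLLARS_US libraries and 9.38, 8.47 and 9.15 FPKM in the PCL libraries. Mcm3 had 6.5, 7.53 and 6.13 FPKM in the PLLARS_US libraries and 8.75, 7.78 and 7.52 FPKM in the PCL libraries. Both had PLLARS_US replicate 2 within the PCL range, or at its edge, and the other PLLARS_US values below it, with log2 differences of -0.26 for Mcm4 and -0.23 for Mcm3. Mcm2 had 7.93, 10.7 and 9.16 FPKM in the PLLARS_US libraries and 11.1, 10.5 and 10.2 FPKM in the PCL libraries. Mcm6 had 9.03, 12 and 9.71 FPKM in the PLLARS_US libraries and 11.8, 10.2 and 9.9 FPKM in the PCL libraries. Mcm7, the most abundant of the ring, had 17.3, 13.1 and 13.8 FPKM in the PLLARS_US libraries and 15.2, 16.5 and 12.3 FPKM in the PCL libraries. For Mcm6 and Mcm7 the groups overlapped, and the 95% intervals of the log2 difference ran from -0.42 to 0.31 and from -0.40 to 0.42. Both kept the sign of that difference in 12 of 16 alternative analyses. The summed FPKM of the 6 genes was 53.0, 58.0 and 50.1 in the PLLARS_US libraries and 63.6, 59.5 and 56.0 in the PCL libraries. PLLARS_US replicate 2 lay inside the PCL range of that sum and the other PLLARS_US libraries below it.

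Among the genes that mark and license origins, 5 of the 7 tested were below 0, with a median log2 difference of -0.19. Orc2, a subunit of the origin recognition complex, had 7.95, 9.2 and 9.25 FPKM in the PLLARS_US libraries and 13.1, 13.1 and 9.47 FPKM in the PCL libraries. The groups did not overlap for Orc2, by a narrow margin against PCL replicate 3, and the log2 difference was -0.38 (SE 0.17, limma p 0.0591, adjusted p 0.737). Orc3, its partner in the complex, had 10.9, 11.8 and 14.6 FPKM in the PLLARS_US libraries and 10.7, 11.6 and 10.04 FPKM in the PCL libraries, a log2 difference of 0.18. Within each library the ratio of Orc2 to Orc3 was 0.733, 0.782 and 0.636 in the PLLARS_US libraries and 1.23, 1.12 and 0.943 in the PCL libraries. The ratio, set side by side after the values were seen, was under 1 in all PLLARS_US libraries and in PCL replicate 3. Orc4, the most abundant of the complex, had 12.4, 14.1 and 14.5 FPKM in the PLLARS_US libraries and 18.8, 16 and 13.3 FPKM in the PCL libraries, with overlapping groups. Orc5 averaged 10.1 ± 1.45 FPKM in the PLLARS_US group and 11.8 ± 1.62 FPKM in the PCL group (SD, n = 3 each). Orc6 averaged 2.81 ± 0.907 FPKM in the PLLARS_US group and 3.31 ± 0.791 FPKM in the PCL group. Orc1, the subunit made as cells enter S phase, averaged 1.01 ± 0.297 FPKM in the PLLARS_US group and 1.26 ± 0.357 FPKM in the PCL group. Cdt1, which brings the helicase to the origin, averaged 2.74 ± 0.417 FPKM in the PLLARS_US group and 2.48 ± 0.174 FPKM in the PCL group. Cdc6, the other loader, was too low for the test, at 1.18, 0.892 and 0.356 FPKM in the PLLARS_US libraries and 1.11, 0.598 and 0.609 FPKM in the PCL libraries. For both Cdc6 and Cdt1 the groups overlapped.

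Mcm10, which helps to activate the loaded helicase, was the clearest member among the low ones. It had 0.751, 0.589 and 0.697 FPKM in the PLLARS_US libraries and 1.11, 1.31 and 1.19 FPKM in the PCL libraries. All PLLARS_US values lay below all PCL values, and the spread within each group was small, at 0.679 ± 0.0829 FPKM in the PLLARS_US group and 1.2 ± 0.0989 FPKM in the PCL group (SD, n = 3 each). Its mean fell under the filter, and it was named after its values were seen. With no filter its log2 difference was -0.39 (limma p 0.02), where 4.33% of 21028 gene models reached an unadjusted p under 0.05 on the lower side. Cdc45, which becomes part of the moving helicase, had 0.803, 0.445 and 0.46 FPKM in the PLLARS_US libraries and 0.817, 0.63 and 0.628 FPKM in the PCL libraries, and overlapped between the groups. The GINS genes, whose proteins join the helicase with Cdc45, all overlapped between the groups. Gins2 averaged 5 ± 0.351 FPKM in the PLLARS_US group and 4.94 ± 0.532 FPKM in the PCL group, and Gins1 averaged 2.62 ± 0.13 FPKM in the PLLARS_US group and 2.79 ± 0.8 FPKM in the PCL group. Gins4 averaged 6.41 ± 1.15 FPKM in the PLLARS_US group and 6.63 ± 1.53 FPKM in the PCL group, and the least abundant, Gins3, averaged 1.18 ± 0.298 FPKM in the PLLARS_US group and 1.56 ± 0.391 FPKM in the PCL group.

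The polymerases held the largest differences in either direction among the tested members, both in accessory subunits. Pole2, the second subunit of the leading strand polymerase epsilon, had 0.793, 1.06 and 0.528 FPKM in the PLLARS_US libraries and 2.96, 1.52 and 1.55 FPKM in the PCL libraries. Every PLLARS_US library lay below every PCL library, and PCL replicate 1 stood far above the rest. The log2 difference was -0.73 (SE 0.27, 95% interval -1.39 to -0.061, limma p 0.0370, adjusted p 0.674). Its catalytic partner Pole had 1.3, 1.13 and 1.38 FPKM in the PLLARS_US libraries and 1.29, 1.26 and 1.38 FPKM in the PCL libraries. The ratio of Pole2 to Pole was thus 0.610, 0.934 and 0.383 in the PLLARS_US libraries and 2.30, 1.21 and 1.12 in the PCL libraries. Pole varied little between libraries, so this ratio mostly restates the values of Pole2 and adds no separate support. Pold2, the second subunit of the lagging strand polymerase delta, went the other way, with 12.6, 11 and 12.1 FPKM in the PLLARS_US libraries and 9.45, 9.51 and 6.09 FPKM in the PCL libraries. No PCL library reached the lowest PLLARS_US value, and PCL replicate 3 was the lowest of all, a log2 difference of 0.49 (SE 0.19, 95% interval 0.023 to 0.95, limma p 0.0424, adjusted p 0.693). Leaving out PCL replicate 3 moved the log2 difference of Pold2 to 0.30 (limma p 0.0699). Leaving out PCL replicate 1 moved that of Pole2 to -0.51 (limma p 0.115). The catalytic partner of Pold2, Pold1, averaged 3.51 ± 0.484 FPKM in the PLLARS_US group and 3.91 ± 0.0224 FPKM in the PCL group. By the deposited positions Pold2 shares 13 bases with Aebp1, an abundant matrix-associated gene on the opposite strand, and the library kit as named gives no strand. Aebp1 had 136, 264 and 265 FPKM in the PLLARS_US libraries and 266, 237 and 90.3 FPKM in the PCL libraries, so PCL replicate 3 was the lowest in both genes while PLLARS_US replicate 1 was low in Aebp1 and highest in Pold2. The part of shared reads in Pold2 was not tested.

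**Figure D4:**
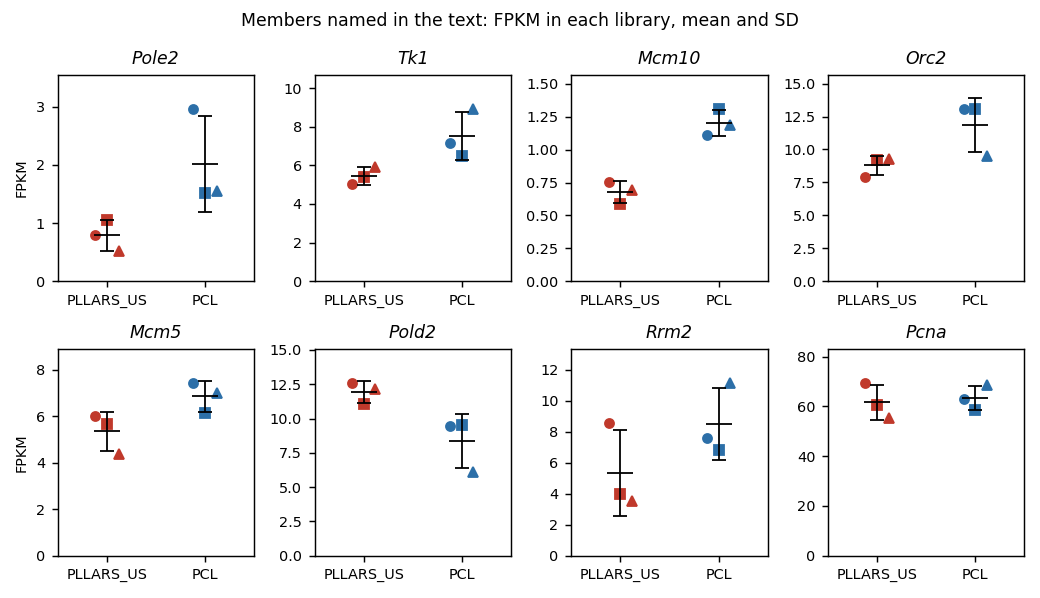
FPKM of 8 members in each library (linear axes from 0), with the mean and SD of 3 rats per group. Pole2, Tk1, Mcm10, Orc2 and Mcm5 are lower in all PLLARS_US libraries, Pold2 is higher in all of them, Rrm2 is low in 2 of them and Pcna overlaps.

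Primase and polymerase alpha, which lay the first bases of each fragment, showed no gene apart. Prim1, the catalytic primase subunit and the third most abundant member, had 11.1, 18.7 and 14.5 FPKM in the PLLARS_US libraries and 22.4, 16 and 17.3 FPKM in the PCL libraries. Its values spread widely in both groups and overlapped, with a log2 difference of -0.33 (SE 0.22). Prim2, Pola1 and Pola2 had log2 differences of -0.019, -0.02 and -0.17. Each of these 4 genes was lowest in PLLARS_US replicate 1 of all 6 libraries.

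Pcna, the sliding clamp that tethers the polymerases and the usual marker of proliferating tissue, did not separate the groups. It had 69.3, 60.4 and 55.1 FPKM in the PLLARS_US libraries and 62.8, 58.6 and 68.4 FPKM in the PCL libraries. The highest and the lowest value both belonged to PLLARS_US libraries, and the log2 difference of -0.042 had a 95% interval of -0.37 to 0.29. The clamp loader genes Rfc2 to Rfc5 had log2 differences from -0.19 to -0.066, and the large subunit Rfc1, which averaged 12.9 ± 1.44 FPKM in the PLLARS_US group and 11.1 ± 0.35 FPKM in the PCL group, had 0.19. The single-strand binding genes overlapped between the groups. Rpa3, the second most abundant member, had 17, 20.1 and 25.8 FPKM in the PLLARS_US libraries and 21.8, 20.1 and 15.8 FPKM in the PCL libraries. Rpa1 and Rpa2 had log2 differences of 0.072 and 0.0041, with 95% intervals of -0.22 to 0.37 and -0.33 to 0.34. Fen1, the flap nuclease, averaged 3.46 ± 0.269 FPKM in the PLLARS_US group and 4.01 ± 1.31 FPKM in the PCL group, whose replicate 3 stood at 5.52. Lig1, the ligase that seals the fragments, averaged 3.08 ± 0.306 FPKM in the PLLARS_US group and 2.85 ± 0.369 FPKM in the PCL group.

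The nucleotide supply members were lower in the PLLARS_US group in 4 of 4 cases, at a median log2 difference of -0.34. They kept that sign in all 16 alternative analyses, which reuse the same libraries. Among these, the filter changes and the replicate block cannot alter a gene's log2 difference. The mean of log2(FPKM + 1) over these 4 genes was 3.04, 3.04 and 2.96 in PLLARS_US replicates 1 to 3 and 3.39, 3.27 and 3.47 in PCL replicates 1 to 3, without overlap. This was not particular to nucleotide supply. The same mean over the 6 helicase activation genes was 1.59, 1.66 and 1.66 in the PLLARS_US libraries. It was 1.78, 1.73 and 1.80 in the PCL libraries, also without overlap. Tk1, the thymidine kinase of dividing cells, had 5.04, 5.38 and 5.94 FPKM in the PLLARS_US libraries and 7.18, 6.49 and 8.91 FPKM in the PCL libraries. All PLLARS_US libraries lay below all PCL libraries, a log2 difference of -0.39 (SE 0.16, 95% interval -0.78 to -0.0089, limma p 0.0463, adjusted p 0.702). Rrm2, the ribonucleotide reductase subunit that limits the enzyme in S phase, had 8.54, 3.95 and 3.54 FPKM in the PLLARS_US libraries and 7.57, 6.81 and 11.1 FPKM in the PCL libraries. PLLARS_US replicates 2 and 3 were the lowest, while PLLARS_US replicate 1 lay inside the PCL range, and the log2 difference was -0.64 (SE 0.34, limma p 0.104, adjusted p 0.811). The highest Rrm2 value of each group was in its muscle-rich library. Without both of those libraries Rrm2, named after its values were seen, had a log2 difference of -0.79 and an unadjusted limma p of 0.00374 (adjusted p 0.254), where 8.41% of all tested genes were lower at an unadjusted p under 0.05. Leaving out single PLLARS_US libraries gave Rrm2 log2 differences of -0.98 without replicate 1 (limma p 0.0077), -0.50 without replicate 2 (limma p 0.252) and -0.44 without replicate 3 (limma p 0.275). Leaving out PCL replicate 3 gave -0.45 (limma p 0.270), so the value of Rrm2 depended on which library was left out. Rrm1, the large subunit, had 15.5, 17.3 and 14.8 FPKM in the PLLARS_US libraries and 17.2, 17.3 and 17.6 FPKM in the PCL libraries. The ratio of Rrm2 to Rrm1 was 0.551, 0.229 and 0.239 in the PLLARS_US libraries and 0.441, 0.393 and 0.634 in the PCL libraries. Tyms, thymidylate synthase, averaged 5.69 ± 1.65 FPKM in the PLLARS_US group and 7.03 ± 1.36 FPKM in the PCL group, with overlapping values.

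Genes that work beside the members were also near the background. Of 31 tested genes of the replication fork and chromatin assembly that are not members, 21 were lower and 0 reached an unadjusted p under 0.05, with a median log2 difference of -0.061. With no filter 25 of 35 were lower, 2 of them at an unadjusted limma p under 0.05, where 4.33% of all gene models were. Dscc1, of the alternative clamp loader for cohesion, had the smallest p of the tested genes of that list. It had 1.81, 1.76 and 1.65 FPKM in the PLLARS_US libraries and 2.47, 2.66 and 2.61 FPKM in the PCL libraries, without overlap. Timeless, of the fork protection complex, had a log2 difference of -0.33 without overlap, the histone chaperone Asf1a 0.22 and Rnaseh2a, of the enzyme that removes ribonucleotides from DNA, -0.31. The groups did not overlap in 2 of the 31 tested genes, both lower, where 10.0% of all tested genes were lower without overlap. Ssrp1, of the histone chaperone FACT and the most abundant of the list, averaged 49.9 ± 6.28 FPKM in the PLLARS_US group and 47.7 ± 7.4 FPKM in the PCL group. Of 33 other nucleotide synthesis and salvage genes 20 were lower, 2 of them at an unadjusted p under 0.05, a share near the 5.01% of all tested genes. These were Ada, adenosine deaminase, at 17.4 ± 1.04 FPKM in the PLLARS_US group and 22.3 ± 1.99 FPKM in the PCL group, and Adss2, of adenosine monophosphate synthesis (listed as Adss), at 41.1 ± 5.66 FPKM in the PLLARS_US group and 54 ± 4.49 FPKM in the PCL group. Ppat, the entry enzyme of purine synthesis, and Dut, which keeps uracil out of DNA, had log2 differences of -0.26 and -0.21. The abundant Pnp, a purine salvage enzyme, averaged 302 ± 29.8 FPKM in the PLLARS_US group and 265 ± 14.7 FPKM in the PCL group, and Nme2, a nucleoside diphosphate kinase, had a log2 difference of -0.058. Samhd1, which breaks down deoxynucleotides and is named after its values were seen, had 12.4, 7.78 and 14.6 FPKM in the PLLARS_US libraries and 6.95, 10.4 and 9.77 FPKM in the PCL libraries, with overlap.

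Among 22 tested genes of the G1/S cyclins and of the E2F and RB families 15 were lower, with a median log2 difference of -0.18. An unadjusted limma p under 0.05 was reached by 1 on the lower side (background 5.01%) and 0 on the higher (background 1.99%). The groups did not overlap in 3 that were lower (background 10.0%) and 1 that was higher (background 4.33%). Ccna2, the cyclin of S phase and G2, reached the smallest p, with 1.94, 3.38 and 3.11 FPKM in the PLLARS_US libraries and 6.35, 4.47 and 6.87 FPKM in the PCL libraries. Its groups did not overlap, and the log2 difference was -0.86 (SE 0.23, limma p 0.01, adjusted p 0.528). The cyclins Ccne1 and Ccne2, which start S phase, also did not overlap, with log2 differences of -0.37 and -0.34, while Rbl2, a pocket protein of resting cells, was higher in all PLLARS_US libraries with 0.24. Cdk4, at 92.5 ± 26.6 FPKM in the PLLARS_US group and 98.6 ± 20.6 FPKM in the PCL group, and Ccnd1, at 79.3 ± 27.7 FPKM in the PLLARS_US group and 66.1 ± 7.16 FPKM in the PCL group, were the most abundant of the list and overlapped. Of 16 tested CDK inhibitors and checkpoint genes 12 were lower. Beside the same backgrounds, 1 lower and 1 higher gene reached an unadjusted limma p under 0.05. The groups did not overlap in 2 lower genes and 1 higher gene. The checkpoint kinase Chek2 had 2.06, 2.08 and 2.25 FPKM in the PLLARS_US libraries and 3.34, 3.04 and 3.51 FPKM in the PCL libraries, a log2 difference of -0.46 (SE 0.16, limma p 0.0256, adjusted p 0.637). Cdkn1c, a CDK inhibitor of resting cells, had 23.8, 40.6 and 33.9 FPKM in the PLLARS_US libraries and 22.7, 19.95 and 11.5 FPKM in the PCL libraries, a log2 difference of 0.84 (SE 0.30, limma p 0.0318, adjusted p 0.650). Neither overlapped between the groups, although Cdkn1c in PLLARS_US replicate 1 stood just above PCL replicate 1. Cdkn2a and the checkpoint clamp gene Hus1 had log2 differences of -0.58 and -0.38, and the abundant inhibitors Cdkn1b and Cdkn1a 0.088 and -0.38, all with overlap.

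Most mitosis genes separated the groups. In the PLLARS_US group all 25 tested mitosis genes were lower, at a median log2 difference of -0.62. Of these, 17 reached an unadjusted limma p under 0.05, beside a background of 5.01% of tested genes, and 20 did not overlap, beside 10.0%. None passed after adjustment, and without PLLARS_US replicate 3, or without PCL replicate 1, 9 of them reached the unadjusted level. The mitosis list was chosen with earlier results of these data known, so these counts are a description and not independent support. The smallest p was that of Kif20a, a kinesin of cytokinesis, with 3.01, 4.81 and 4.22 FPKM in the PLLARS_US libraries and 8.02, 7.28 and 7.73 FPKM in the PCL libraries, a log2 difference of -0.81 (SE 0.18, limma p 0.00378, adjusted p 0.402). Cdk1, Birc5 and Ccnb1 followed, with log2 differences of -0.74, -0.85 and -0.64, and the cytokinesis protein gene Prc1, among the most abundant, had -0.66. The mean of log2(FPKM + 1) over the 26 matched mitosis genes was 1.76, 1.92 and 1.69 in PLLARS_US replicates 1 to 3 and 2.42, 2.20 and 2.46 in PCL replicates 1 to 3. The mean of the replication members minus that of the mitosis genes was 0.90, 0.89 and 1.07 in the PLLARS_US libraries and 0.51, 0.64 and 0.38 in the PCL libraries, so it was larger in every PLLARS_US library. This gap was formed after the values of both lists were known and is given as a description, with no test. Without the 2 muscle-rich libraries 24 of 25 mitosis genes were lower and 12 reached an unadjusted p under 0.05.

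**Figure D5:**
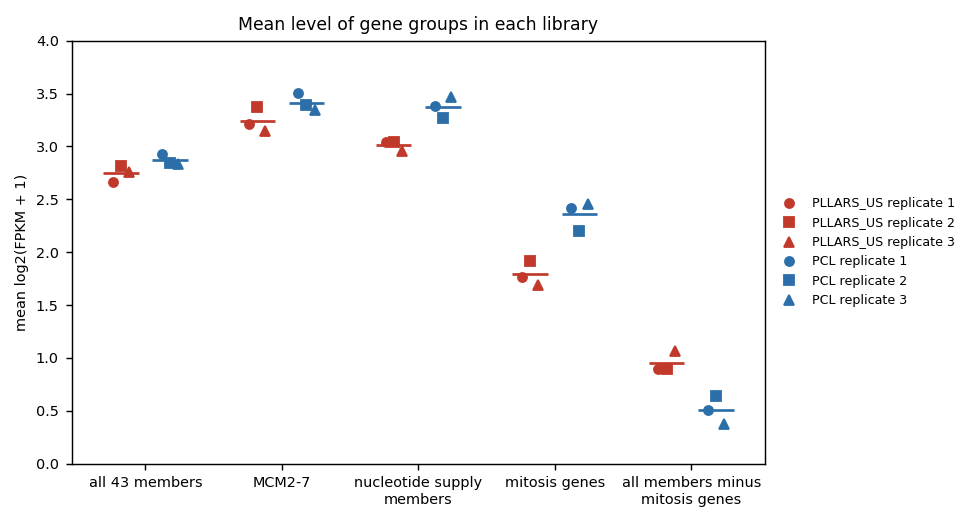
Mean log2(FPKM + 1) of gene groups in each library (vertical axis), with the group mean as a line. The marks for all 43 members lie close, those for MCM2-7 overlap, those for nucleotide supply and for the mitosis genes lie apart (mitosis 1.69 to 1.92 in PLLARS_US libraries and 2.20 to 2.46 in PCL libraries), and so does the difference between the means in the last column.

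Members with and without the E2F motif were not tested against each other. The 17 members with an E2F match had a median log2 difference of -0.054, with 12 of 17 lower, and the 17 tested members with a window and no match had a median of -0.13, with 13 lower. The 6 tested members with no window in the table had a median of -0.18, with 5 lower. The positions given with the deposited values are printed without a build, since the notes name a human one for rat identifiers. Pole2 (ENSRNOG00000004242) spans 91494393 to 91518996 of chromosome 6 and Tk1 (ENSRNOG00000047314) 106817601 to 106828884 of chromosome 10, both on the minus strand. Pold2 (ENSRNOG00000014098) spans 86111294 to 86117578 of chromosome 14 and Orc2 (ENSRNOG00000012558) 65350627 to 65387169 of chromosome 9, both on the minus strand. Mcm10 (ENSRNOG00000017981) spans 77224112 to 77246478 of chromosome 17 on the plus strand. Of the 43 members 3 overlapped another gene model in the table, Pold2, Rfc1 and Pola2. Pola2 shares 7643 of the 48033 bases of its span with Cdc42ep2 on the same strand. Cdc42ep2 averaged 10.5 FPKM, beside 2.63 FPKM for Pola2. Rfc1 shares 33689 of 121988 bases with an opposite-strand model that averaged 0.41 FPKM. The part of shared reads in Pola2 and Rfc1 was not tested.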

How the data were processed

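RNA was measured in 6 sciatic nerve libraries, 3 per group, and the titles gave the groups. Reads were paired and 150 bases long, per the labels' protocols. The authors deposited FPKM, 1 column per library. The submitters' processing notes name StringTie 1.3.3b, HISAT2 2.1.0, DESeq 1.28.0 and FastQC 0.11.5 without roles, and the human build hg38, while the identifiers are rat. The other sheet repeated these values for all 21028 gene models. Whole fragments came out for 1124 of 1124 values under 50 fragments (within 0.03) of 446 gene models of at most 360 bases and gave the depths; counts of other genes were not recovered, so no count model was fitted.

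The deposited FPKM were put on the log2(FPKM + 1) scale, which understates differences of low genes. The test was limma 3.58.1 (R 4.3.3), fitted with a single group term and a trended variance to the 13720 genes whose FPKM averaged 1 or more, and p-values were adjusted by Benjamini-Hochberg. Intervals are 95% intervals of the same fit. An exact permutation test of 3 against 3 rats cannot give a p below 0.1. On simulated data of 13720 genes for this comparison, 81% of 100 genes given a log2 change of 1 and 100% of 100 given 2 were recovered, with 5 false calls. The changed genes were drawn from those above about 5 FPKM, with noise independent between genes. The recovery therefore does not cover lower members such as Pole2, or tissue differences shared by many genes. Correlations across genes ran from 0.862 to 0.960 between libraries of the same group and from 0.868 to 0.959 between groups. Replicate numbers did not pair the libraries.

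The members and lists were chosen with earlier results of these data known. Given in each library were members with an unadjusted p under 0.05, with non-overlapping groups, among the 6 highest, or of MCM2-7, and in each other list up to 4 genes by p and 2 by level. Orc3, Cdc6, Cdc45, Pole and Rrm2 met none of these conditions and were given in each library as well. Of the list genes, 2 were matched through another symbol. Alternatives covered the pseudocount, the filter, the scaling, library weights, a replicate block and leaving out each library; leaving out the 2 muscle-rich libraries and a muscle covariate were added after seeing the data.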

Additional observations from a re-analysis of the deposited data

How the results depend on the processing

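With limma the number of members at an adjusted p under 0.05 was 0 under each of the 16 alternatives. The numbers of members at an unadjusted p under 0.05, 2 lower and 1 higher as reported, were 0 lower with a mean FPKM of at least 5, which keeps 26 members, 1 lower under quantile normalization, 1 lower and 0 higher with a common FPKM sum, 3 lower and 2 higher with array weights, 0 lower and 0 higher with the replicate block, and 0 higher without the 2 muscle-rich libraries and with the muscle covariate. Leaving out single libraries gave 0 to 2 lower and 0 to 1 higher. Pole2 reached that level in 9 of 15 alternatives, Pold2 in 8 of 16, Orc2 in 6, Rrm2 in 3 and Tk1 in 2, each with the same sign in all. The filter changes and the replicate block leave a gene's log2 difference as it was, so its sign could not move there. The members' median was -0.063 under quantile normalization, -0.031 with array weights, -0.061 without the muscle-rich libraries and -0.17 to -0.055 leaving out single libraries; under median-ratio scaling 23 of 40 members were lower, with a median of -0.082 and of 0.015 over all tested genes.

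Over all genes, array weights called 118 at an adjusted p under 0.05, the muscle covariate 4 and leaving out single libraries 0 to 3. At an unadjusted p under 0.05 array weights gave 2827 genes, the replicate block 543, leaving out the muscle-rich libraries 1867 and leaving out single libraries 578 to 1245, the fewest without PCL replicate 2 (578) and without PLLARS_US replicate 3 (615). Under median-ratio scaling such genes were 3.70% of tested genes on the lower and 3.10% on the higher side. The 17 mitosis genes became 6 with a mean FPKM of at least 5, which keeps 7, 9 with the replicate block and 9 to 15 leaving out single libraries, the fewest without PLLARS_US replicate 3 and without PCL replicate 1. Their median was -0.78 on log2(FPKM + 0.1), -0.47 with array weights and -0.68 to -0.54 leaving out single libraries. The G1/S median was -0.097 with a mean FPKM of at least 5, -0.10 under quantile normalization and -0.27 to -0.15 leaving out single libraries. The medians of the other lists leaving out single libraries ran from -0.12 to -0.012 for fork genes, -0.11 to 0.054 for nucleotide genes and -0.26 to -0.098 for inhibitors and checkpoint genes. Deviations from the group means correlated at -0.50, 0.15 and -0.32 for replicates 1 to 3 of the groups, so the numbers gave no pairing. Where no construction shows it, the cause of these shifts was not tested. Counting error per gene is not given by FPKM, and it weighs most on the low genes Orc1, Cdc6, Cdc45, Mcm10 and Pole2.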
